A study of Drosophila melanogaster with 23 samples.

Results

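Midguts of flies that expressed the reprogramming factors OKSM under the ubiquitous driver armadillo (arm) were compared with midguts of WT control flies of the same expression model. Members were chosen by sample title and gave 6 of the 23 RNA-seq libraries of the series, 3 of OKSM and 3 of WT, and 9637 of the 17714 genes listed had a mean of at least 10 reads over the 11 libraries of the ubiquitous model and were tested. Both groups carried armGal4, UAS-GFP according to the list of crosses, and the temperature-sensitive tubGal80ts. OKSM flies carried in addition UAS-OKSM, a polycistronic transgene placed in the attP2 docking site on chromosome 3, whereas WT flies carried UAS-TdTomato, a red fluorescent protein from another stock. Expression was constant. Neither age nor sex of the sequenced flies, nor the number of midguts in a library, is given in the sources. The UAS lines differed in transgene and in genetic background, and these cannot be told apart in the comparison of OKSM with WT. Further libraries came from flies with the senolytic factor Sen (2 libraries) or with OKSM and Sen together (OKSM-Sen, 3 libraries) under the same driver, and from the ISC-restricted model, which used an escargot driver.

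OKSM stands for the transcription factors Oct4, Klf4, Sox2 and c-Myc, which together return differentiated mammalian cells to a pluripotent state. The genes counted were fly genes, so the level of the transgene itself was not measured, and whether it was expressed was not checked here. The adult midgut of the fly is renewed by intestinal stem cells (ISCs), whose daughters become enteroblasts and then enterocytes, which secrete digestive enzymes and take up nutrients, or enteroendocrine cells, which release peptide hormones. The arm gene encodes the fly beta-catenin and its promoter is active in most cell types, so that enterocytes, the bulk of the tissue, were among the cells addressed by the driver.

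Total expected counts ran from 33438269 to 40012054 in WT and from 34447109 to 46324866 in OKSM. By chi-square per gene, OKSM replicate 1 stood apart from the others of its group. It had 505 against replicate 2 and 417 against replicate 3, compared with 50.9 between replicates 2 and 3. WT replicate 1 had 202 against each other WT replicate, compared with 93.4 between those. By Pearson correlation of log2 levels, OKSM replicate 1 had 0.969 and 0.965, and WT replicates 1 and 2 had the lowest value within a group, 0.949. On the first principal component of WT and OKSM, these WT replicates lay farthest apart, at -47.2 and 43.2. OKSM lay from -10.6 to 10.9 on it. OKSM replicate 1 held 385 reads of roX1, a noncoding RNA of male dosage compensation, where the other libraries of WT and OKSM held 6 to 18. Counts of calls without it are given in the paragraph on stability. The labels do not state whether replicates were raised as independent cohorts, and p-values cover no more than the spread of these samples.

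Few genes differed between OKSM and WT. By edgeR's quasi-likelihood test at a false discovery rate (FDR) of 10%, 53 genes rose, which is 0.55% of those tested, and 52 fell, which is 0.54%. All 105 called genes (1.09%) had OKSM and WT libraries that did not overlap, which was true of 14.5% of all genes tested. The median log2 fold change over all genes was -0.003, and the median absolute value of the called genes was 1.3. Of the genes that rose, 34 did so by a log2 of 1 or more, and 31 of those that fell did so by at least as much. At an unadjusted p under 0.05 there were 464 higher and 511 lower genes. DESeq2's Wald test called 427 genes in place of 105, and all 105 were among them.

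**Figure D1:**
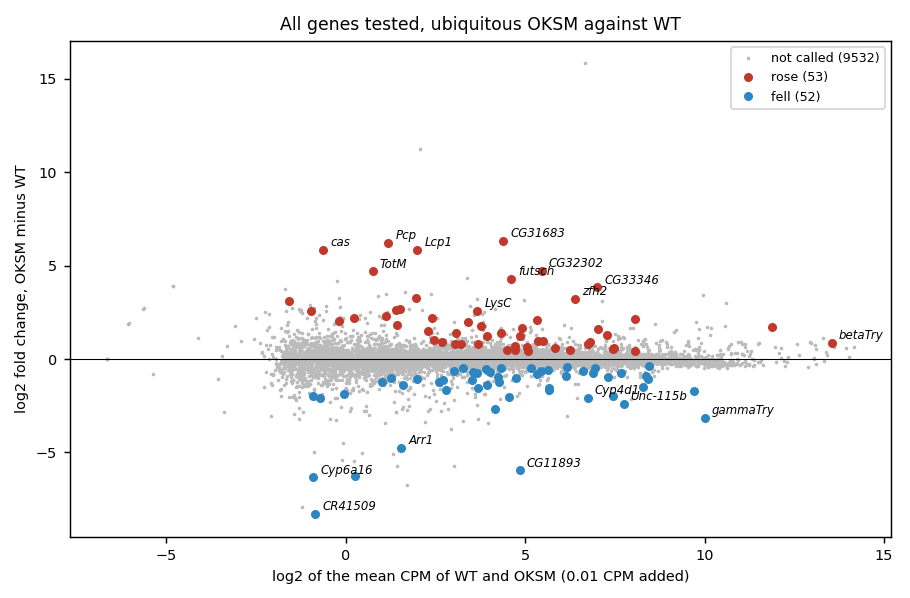
Log2 fold change of OKSM minus WT (vertical) against the log2 of the mean CPM of both groups (horizontal) for the 9637 genes tested in the ubiquitous model, with genes that rose in red and genes that fell in blue. The 105 called genes span low and high expression, with cas among the low ones and betaTry the most abundant, and most genes lie near 0.

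A first group of genes was far higher in OKSM than in the other constructs of the ubiquitous model. Lcp1, a larval cuticle protein gene on 2R, had 0.106, 0.172 and 0.123 CPM (reads scaled to a library's total with TMM factors) in the WT libraries and 7.50, 10.7 and 5.29 CPM in OKSM, a log2 difference of 5.83 with a standard error (SE, given after ± from here on) of 0.45 and an adjusted p of 0.00076. In OKSM-Sen it stayed at 0.0843 to 0.237 CPM, and in Sen at 0.472 and 0.677 CPM, above every WT library and called against WT (log2 2.07, adjusted p = 0.0843). The difference between OKSM and OKSM-Sen was itself called, at a log2 of 5.37. Pcp, a pupal cuticle protein gene, showed the same kind of values, with 0.0795, 0 and 0.0925 CPM in WT, 5.54, 2.49 and 5.41 CPM in OKSM (log2 6.21 ± 0.78, adjusted p = 0.00742) and 0.116 to 0.141 CPM in OKSM-Sen. Pcp lies within the annotated span of Gart, an enzyme gene of purine synthesis on the other strand, which also rose (log2 0.62), a call that was lost without any 1 of the OKSM and WT libraries (adjusted p of up to 0.237). Per length, the median level of Gart was 8.03 TPM (transcript abundance after division by length) in WT and 8.08 TPM in OKSM. The sources do not state if reads were counted by strand, so reads of overlapping genes such as Pcp and Gart cannot be told apart with certainty. Of the 14 cuticle and epidermis genes tested, Lcp1 and Pcp were the ones called, and the median log2 fold change of the 14 was 0.24. Among all genes tested, 0.55% rose.

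CG31683 had the largest rise of all called genes, from 0.928, 0.201 and 0.401 CPM in WT to 21.2, 49.7 and 53.4 CPM in OKSM (log2 6.32 ± 0.56, adjusted p = 0.00128). It was at 0.0843 to 0.174 CPM in OKSM-Sen. Without WT replicate 1, the highest of the WT libraries, its log2 fold change was 7.10. Expression of futsch, whose protein binds microtubules in neurons, was 2.81, 1.98 and 2.19 CPM in WT and 28, 78.3 and 32.4 CPM in OKSM, with OKSM replicate 2 the highest (log2 4.31 ± 0.40, adjusted p = 0.00154, and 3.69 without OKSM replicate 2). Both Sen libraries and all OKSM-Sen libraries lay below every WT library, at 0.903 to 1.77 CPM. The other 5 neuron and glia genes tested did not pass the test, with log2 fold changes from -0.26 for Appl to 0.12 for brp, and elav, the pan-neuronal RNA-binding protein gene, was at -0.01. TotM, a Turandot gene of the humoral stress response, rose from 0.265, 0.0287 and 0.0617 CPM to 4.09, 3.43 and 2.19 CPM (log2 4.70 ± 0.71, adjusted p = 0.0226, and 6.07 without WT replicate 1), while OKSM-Sen stayed at 0.0579 to 0.169 CPM. Per length, the median level of CG31683 was 0.18 TPM in WT and 22.3 TPM in OKSM, and that of futsch was 0.08 and 1.29 TPM.

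In all, 8 of the 53 genes that rose were called higher in OKSM than in OKSM-Sen, a contrast that shares the OKSM libraries with OKSM against WT and in which 0.156% of all genes were called higher in OKSM. Besides Lcp1, Pcp, CG31683, futsch and TotM they were CG31705 (log2 1.65 against WT), CG7227 (1.40) and CG43107 (2.18). CG31705 had 47.1, 41.4 and 48.5 CPM in OKSM and 12.5 to 18.1 CPM in OKSM-Sen, which lies within the 11 to 19.6 CPM of WT. Of the 52 genes that fell, 3 were called lower in OKSM than in OKSM-Sen, where 0.145% of all genes were. These were sordd1, obst-E, a chitin-binding protein gene, and phr, which encodes a DNA photolyase. The phr gene had 22.1, 23.5 and 25 CPM in WT, 17.6, 17.9 and 15.6 CPM in OKSM (log2 -0.47 ± 0.09, adjusted p = 0.0692) and 29.5 to 32.8 CPM in OKSM-Sen, above WT. The calls of CG43107 and phr against WT were lost without any 1 OKSM library, WT replicate 2 or WT replicate 3, among others (adjusted p of up to 0.271).

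A second group was high in both constructs that carried OKSM. CG33346 (FBgn0053346, BDGP6.54 3R:28669233-28670452) had 16.1, 15 and 19.3 CPM in WT and 228, 278 and 217 CPM in OKSM (log2 3.84 ± 0.18, adjusted p = 1.45e-05, the lowest of the comparison). The OKSM-Sen libraries were at 201, 162 and 221 CPM, close to OKSM, and the Sen libraries at 23.5 and 29.8 CPM, above every WT library but far below OKSM. Its median level was 15.2 TPM in WT and 206 TPM in OKSM. CG32302 had 4.61, 2.99 and 2.07 CPM in WT, 63.0, 69.2 and 122 CPM in OKSM (log2 4.71 ± 0.50, adjusted p = 0.00415) and 40.6, 74.4 and 85.2 CPM in OKSM-Sen, with Sen at 8.74 and 18.9 CPM. It overlaps yellow-g, a gene of eggshell formation, which did not pass the test (0.424, 0.172 and 0.0617 CPM in WT, 2.08, 0.535 and 2.04 CPM in OKSM, log2 2.79, adjusted p = 0.186). LysC, annotated as a pseudogene that overlaps LysD and mwh, lies in a cluster of gut lysozyme genes similar enough to share reads. It rose from 3.68, 4.02 and 3.24 CPM to 16.4, 23.7 and 25.5 CPM (log2 2.58 ± 0.30, adjusted p = 0.00505). OKSM-Sen had 26.0, 20.6 and 17.6 CPM, and Sen had 9.05 and 4.16 CPM, above every WT library. LysC was the only called member of the 6 genes tested on the lysozyme list, whose median log2 fold change was 0.86. Among all genes tested, 0.55% rose.

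The transcription factor gene cas (castor), known for the timing of neuroblast lineages, had 0.053, 0 and 0 CPM in WT and 2.23, 0.598 and 0.973 CPM in OKSM (log2 5.84 ± 1.01, adjusted p = 0.0567). It was not detected in Sen and had 0.811, 1.21 and 0.379 CPM in OKSM-Sen. At these few reads the call was lost without OKSM replicate 1 (log2 5.14, adjusted p = 0.107) and without WT replicate 1 (log2 8.51, adjusted p = 0.122), and also without OKSM replicate 3, WT replicate 2, WT replicate 3 or OKSM-Sen replicate 1, with the adjusted p never above 0.168. CG4686 rose by a log2 of 0.79, from 6.5 to 7.24 CPM in WT to 10.5 to 12.7 CPM in OKSM, and its call was lost without OKSM replicate 2 or OKSM replicate 3 (adjusted p of up to 0.124).

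Genes of digestion made up another group, with higher levels in OKSM and often in Sen as well. The trypsin gene betaTry was among the most abundant of the called genes, at 8770, 8800 and 7740 CPM in WT and 16900, 14600 and 14500 CPM in OKSM (log2 0.86 ± 0.15, adjusted p = 0.0448), and the Sen libraries had 13100 and 18400 CPM. The serine proteases Ser6 and Ser8 rose by a log2 of 2.12 ± 0.42 (adjusted p = 0.0801) and 2.12 ± 0.43 (adjusted p = 0.089). Ser6 had 101, 88.7 and 112 CPM in WT and 236, 584 and 492 CPM in OKSM, and Ser8 had 8.59, 17.7 and 19.4 CPM against 57, 74.7 and 66.1 CPM. CG18180, a serine protease gene, rose from 1600, 1530 and 2030 CPM to 5560, 5640 and 6010 CPM (log2 1.74). The intestinal alkaline phosphatase gene Alp13 rose from 1.3, 0.201 and 0.647 CPM to 5.17, 9.45 and 6.45 CPM (log2 3.28 ± 0.54, adjusted p = 0.0388), with Sen at 7.05 and 4.91 CPM and OKSM-Sen at 7.13 to 11.9 CPM. Without WT replicate 1 the log2 fold change of Alp13 was 4.05, and its call was lost without OKSM replicate 2, OKSM replicate 3 or WT replicate 3. The enterocyte gene mex1 rose slightly, from 233, 220 and 232 CPM to 319, 307 and 286 CPM (log2 0.41 ± 0.09, adjusted p = 0.0964). None of the WT and OKSM libraries of these genes overlapped, but the calls of betaTry, CG18180, Ser8 and mex1 were lost without any 1 of the 6 libraries, and that of Ser6 without any 1 of them other than OKSM replicate 1, with adjusted p-values of up to 0.274. Those of CG18180, Ser6, Ser8 and mex1 were lost without OKSM-Sen replicate 2 as well, those of Ser6, Ser8 and mex1 without OKSM-Sen replicate 3, those of Ser8 and mex1 without Sen replicate 2, and that of mex1 also without Sen replicate 3 or OKSM-Sen replicate 1.

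The Jonah proteases, a family of gut serine proteases, were higher in OKSM without passing the test. None of the 16 members tested was called by edgeR, whereas 9 were higher at an unadjusted p under 0.05 and 7 rose by DESeq2. Of all 9637 genes, 464 were higher at that p and 227 rose by DESeq2. In other settings edgeR did call members higher, 3 without Sen replicate 2, 3 without Sen replicate 3 and 2 without robust estimation. It called 1 without WT replicate 1 and 1 in a fit of the compared libraries alone. The median log2 fold change of the 16 was 0.85 (0.57 to 1.00 when 1 OKSM or WT library was left out), beside -0.003 for all genes, and their summed level was 38060 to 53690 CPM in WT and 61280 to 109200 CPM in OKSM. Jon25Bi had 567, 338 and 119 CPM in WT and 1910, 3640 and 2630 CPM in OKSM (adjusted p = 0.109), and Jon25Bii had 327, 124 and 49.7 CPM against 1720, 2020 and 1730 CPM (adjusted p = 0.123). In these genes WT itself spread widely, with WT replicate 3 the lowest. In bulk midguts, fewer cells of a type and less RNA per cell cannot be told apart, so these values do not say whether more enterocytes or more enzyme per enterocyte were present. The uncalled gene with the largest fold change, CG1304, was picked from its values. It had no read in WT, 152, 221 and 240 CPM in OKSM, 0 and 30.3 CPM in Sen and 0, 69.4 and 56.5 CPM in OKSM-Sen (adjusted p = 0.247).

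**Figure D2:**
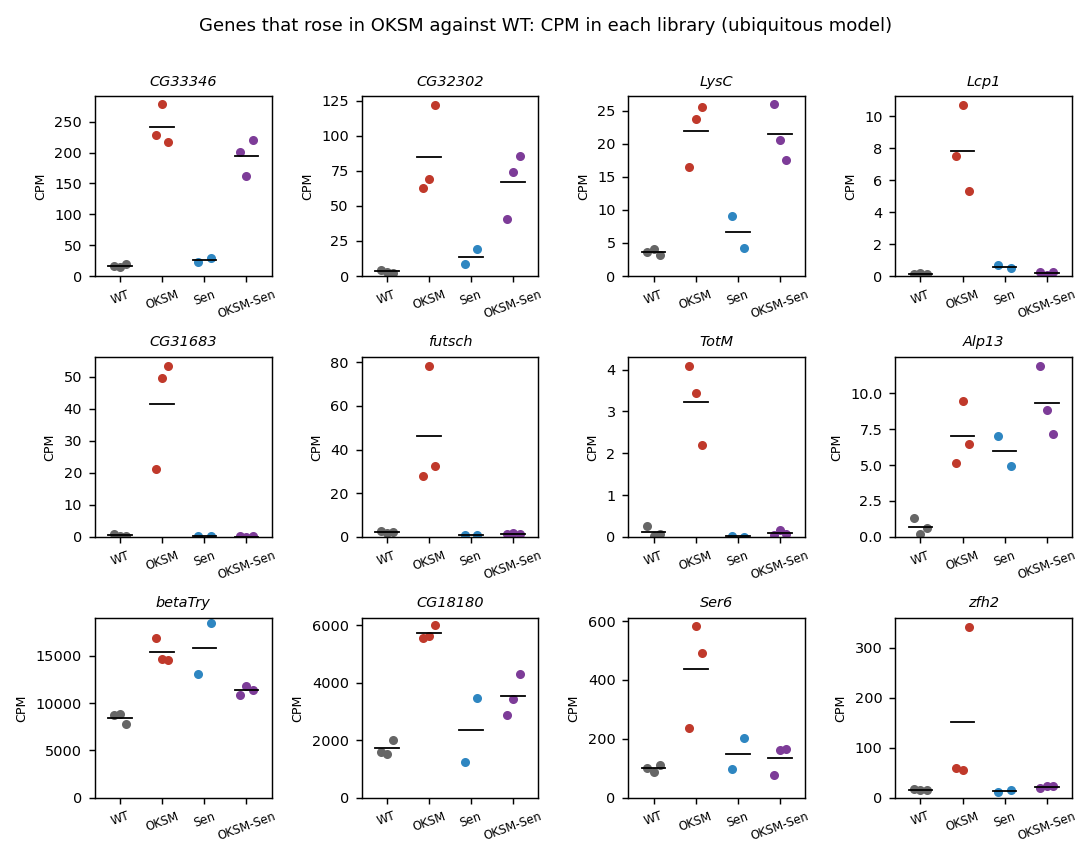
CPM (vertical axes, each from 0) of 12 genes that rose in OKSM against WT, with 1 point per library for WT, OKSM, Sen and OKSM-Sen (horizontal) and the mean as a line. CG33346, CG32302 and LysC were high in OKSM and OKSM-Sen, Lcp1, CG31683, futsch and TotM were far higher in OKSM than elsewhere, and for zfh2 OKSM replicate 3 stood at 342 CPM.

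Genes of defense and of chitin turnover were among the remaining genes that rose. Tep2, a thioester-containing protein of the immune response, rose from 12, 7.41 and 7.61 CPM to 21.5, 22.0 and 21.1 CPM (log2 1.26). OKSM-Sen, at 10.8 to 13.9 CPM, overlapped WT and lay below every OKSM library. None of 11 antimicrobial peptide genes was called by edgeR, 3 were higher at an unadjusted p under 0.05 and 2 rose by DESeq2. Of all 9637 genes, 464 were higher at that p and 227 rose by DESeq2. The median log2 fold change of the antimicrobial peptide genes was 1.85, with 10 of the 11 above 0. The median was 1.03 without OKSM replicate 3, and 0.90 over the 19 genes tested with no filter on low counts, of which 11 were above 0. Without Sen replicate 2 or Sen replicate 3, 1 of the 11 was called. Drsl3, of the drosomycin family, had 0.901, 0.690 and 0.339 CPM in WT and 4.98, 2.74 and 3.53 CPM in OKSM (adjusted p = 0.123). The chitinase genes Cht5 and Cht9 rose by a log2 of 2.18 and 1.63. Mco1, a multicopper oxidase gene, and Ndg, which encodes the basement membrane protein nidogen, rose by 0.92 and 0.90. AANATL2, an arylalkylamine N-acetyltransferase gene, rose from 6.23, 4.43 and 7.55 CPM to 19.9, 24.7 and 18.5 CPM (log2 1.79 ± 0.21, adjusted p = 0.00597), while Sen had the highest levels, 30.8 and 43.9 CPM. CG15153, CG12112 and CG1628, which have no given name, rose by a log2 of 2.69 ± 0.33 (adjusted p = 0.00615), 1.38 ± 0.17 (0.00733) and 1.48 ± 0.20 (0.0104). CG15153 had 0.530, 0.604 and 1.17 CPM in WT and 4.73, 4.98 and 5.2 CPM in OKSM, and CG12112 had 10.2, 13.2 and 9.74 CPM against 24.9, 30.3 and 31.4 CPM. These 3 genes and AANATL2 were called whichever library was left out. The call of Tep2 was lost without OKSM replicate 2, OKSM replicate 3 or WT replicate 3 (adjusted p of up to 0.133). Calls of Cht5, Cht9, Mco1 and Ndg were lost without most of the libraries, OKSM replicate 1, OKSM replicate 3 and WT replicate 1 among them (adjusted p of up to 0.302).

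Changes of genes with housekeeping roles were small. SkpA, a subunit of SCF ubiquitin ligases, rose by a log2 of 0.57, from 134 to 150 CPM in WT to 206 to 220 CPM in OKSM. Fnta, the alpha subunit of protein farnesyltransferase, rose by 0.60, I-2, an inhibitor of protein phosphatase 1, by 0.68, and MCTS1, a factor of translation reinitiation, by 0.46. Metabolic genes that rose included Mpcp1, a mitochondrial phosphate carrier gene (log2 1.96), Fatp2, a fatty acid transport protein gene (1.01), and frj, a lysophospholipid acyltransferase gene (0.48). SkpA was no longer called without OKSM replicate 2, OKSM replicate 3 or WT replicate 3 (adjusted p of up to 0.133), and the calls of Fnta, I-2, MCTS1, Mpcp1, Fatp2 and frj were each lost without OKSM replicate 2, among other libraries (adjusted p of up to 0.302). The homeodomain and zinc finger gene zfh2 rose from 17.4, 16.4 and 14.9 CPM to 59.3, 54.9 and 342 CPM (log2 3.23, adjusted p = 0.0929). Its fold change rested in part on OKSM replicate 3, without which it was 1.81 (adjusted p = 0.00121), and the call was lost when any 1 WT, Sen or OKSM-Sen library was left out (adjusted p of up to 0.323).

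Among the genes that fell, several were low in OKSM and OKSM-Sen and not in Sen. Unc-115b, an actin-binding protein gene, had 268, 430 and 382 CPM in WT and 73.4, 55.6 and 74.8 CPM in OKSM (log2 -2.40 ± 0.20, adjusted p = 0.00076). In Sen it had 332 and 382 CPM, within the WT range, and in OKSM-Sen 80.7, 103 and 78.6 CPM. The gene p24-2, a member of the cargo receptor family of early secretory traffic, overlaps Unc-115b on the same strand of 3R and fell with it, from 282, 241 and 316 CPM to 70.8, 59.9 and 85.2 CPM (log2 -1.96 ± 0.17, adjusted p = 0.00076). Their annotated spans nearly coincide (9687060-9692775 and 9687402-9692794), so their reads cannot be told apart with certainty and their falls may not be independent. Cyp12e1, a mitochondrial cytochrome P450 gene, had 23.8, 23.4 and 20.1 CPM in WT, 9.71, 7.53 and 7.97 CPM in OKSM and 8.89 to 9.39 CPM in OKSM-Sen, against 20.1 and 22.4 CPM in Sen (log2 -1.42 ± 0.12, adjusted p = 0.00076). Acf, a subunit of an ISWI chromatin remodeling complex, fell from 18.7, 20.5 and 18.6 CPM to 5.74, 6.93 and 6.90 CPM (log2 -1.56 ± 0.16, adjusted p = 0.00248), with OKSM-Sen at 6.15 to 7.50 CPM and Sen at 20.7 and 13.5 CPM. The same held for pre-mod(mdg4)-AE, an exon unit of the trans-spliced mod(mdg4) locus (log2 -1.10), Pex11c, of the family of peroxisome division proteins (-0.69), and Daao2, a D-amino acid oxidase gene (-0.99). The calls of Pex11c and Daao2 were lost without OKSM replicate 1, OKSM replicate 3, any 1 WT library, OKSM-Sen replicate 2 or OKSM-Sen replicate 3, and that of Daao2 also without OKSM replicate 2, Sen replicate 2 or OKSM-Sen replicate 1 (adjusted p of up to 0.281).

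Calls among cytochrome P450 and UDP-glycosyltransferase genes were all falls, and the glutathione lists held no call. Of 72 cytochrome P450 genes tested, 4 fell and none rose by edgeR, with 13 lower and 5 higher at an unadjusted p under 0.05 and 8 fallen and 3 risen by DESeq2. Of all 9637 genes, 0.54% fell and 0.55% rose by edgeR, and 511 were lower and 464 higher at that p. By DESeq2, 200 fell and 227 rose. The median of the 72 was -0.02, with 35 above 0 and a range from -6.33 to 3.22. None of 32 glutathione S-transferase genes was called by edgeR, 4 were higher and 2 were lower with an unadjusted p under 0.05, 2 rose by DESeq2 and the median was 0.22. The 18 further genes of glutathione and redox metabolism had no call by edgeR either, with 3 higher and 2 lower by the same measure, 3 risen and 1 fallen by DESeq2 and a median of 0.07. Cyp9f3 fell from 94.2, 91.2 and 89.6 CPM to 44.8, 50.2 and 50.1 CPM (log2 -0.92 ± 0.08, adjusted p = 0.000969), and Sen, at 71.2 and 77.9 CPM, lay between WT and OKSM. Cyp4d1 had 184, 167 and 170 CPM in WT and 50.1, 34.3 and 37.6 CPM in OKSM (log2 -2.09 ± 0.21, adjusted p = 0.0016), but was as low in Sen (39.7 and 64.7 CPM) and OKSM-Sen (31.5 to 41.4 CPM). Cyp6a16 was near the limit of detection, with 1.54, 0.115 and 1.48 CPM in WT and 0, 0 and 0.0304 CPM in OKSM (log2 -6.33 ± 1.28, adjusted p = 0.0784), and its call was lost without OKSM replicate 3 (log2 -8.24, adjusted p = 0.22) or any other 1 OKSM library, and also without Sen replicate 2 or any 1 OKSM-Sen library. Of 30 UDP-glycosyltransferase genes, Ugt302E1 (log2 -0.75 ± 0.14, adjusted p = 0.0534) and Ugt303A1 (-0.95 ± 0.18, adjusted p = 0.0692), 19016 bases apart on 3R, fell and the median was -0.12. Ugt302E1 had 264, 278 and 230 CPM in WT and 139, 172 and 147 CPM in OKSM, and Ugt303A1 had 163, 224 and 245 CPM against 85.7, 130 and 111 CPM. Both calls were lost without OKSM replicate 1, OKSM replicate 3 or WT replicate 2, that of Ugt302E1 also without WT replicate 1 and that of Ugt303A1 without WT replicate 3, OKSM-Sen replicate 2 or OKSM-Sen replicate 3 (adjusted p of up to 0.227).

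Within the trypsin cluster of 2R, neighboring genes moved in opposite directions. While betaTry rose, gammaTry fell from 2300, 1540 and 1670 CPM to 231, 199 and 188 CPM (log2 -3.16 ± 0.41, adjusted p = 0.0112), and deltaTry from 1570, 1140 and 1100 CPM to 425, 369 and 378 CPM (log2 -1.70 ± 0.32, adjusted p = 0.0692). gammaTry lies 1666 bases and deltaTry 7924 bases from betaTry. In Sen and OKSM-Sen both genes were at 63.5 to 302 CPM, so that WT was the high construct for both. Of the 17 trypsins and related proteases tested, 3 rose, 2 fell and the median was -0.22. Among all genes tested, 0.55% rose and 0.54% fell. The trypsin copies are near-identical and share reads, which expected counts divide between them, so single members are uncertain, and the call of deltaTry was lost without any 1 of the OKSM and WT libraries or without OKSM-Sen replicate 2 (adjusted p of up to 0.232).

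A cluster of 3R that holds genes of the ecdysteroid kinase-like family showed the same split. CG31436 fell from 35.1, 42.6 and 35.8 CPM to 11.3, 7.53 and 8.60 CPM (log2 -2.05 ± 0.17, adjusted p = 0.00076), and CG11893 fell from 40.3, 54.4 and 75.2 CPM to 1.27, 0.535 and 0.882 CPM (log2 -5.96 ± 1.11, adjusted p = 0.0711). CG13658, 959 bases from CG11893, rose from 21.3, 25.9 and 36.2 CPM to 54.6, 56.8 and 51.1 CPM. In Sen replicate 2 CG11893 was at 33.5 CPM and in Sen replicate 3 at 1.14 CPM, and its call was lost without any 1 of the OKSM, WT and OKSM-Sen libraries (adjusted p of up to 0.255), as was that of CG13658 without any 1 OKSM library, WT replicate 1, WT replicate 2, OKSM-Sen replicate 2 or OKSM-Sen replicate 3. CG31436 and CG13658 in Sen and OKSM-Sen were on the side of OKSM, with 6.81 to 8.74 CPM and 54.5 to 100 CPM.

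Among the genes that fell were some known from neurons and photoreceptors, picked from their values and on no list. The synaptic vesicle priming gene unc-13, on chromosome 4, had 64.4, 60.7 and 107 CPM in WT and 21.8, 23 and 28.6 CPM in OKSM (log2 -1.66 ± 0.21, adjusted p = 0.00843), and asRNA:CR44029, which overlaps it on the other strand, fell with it (-1.23). Sen was as low, at 18.8 and 16.7 CPM for unc-13, and OKSM-Sen was higher, at 38.2 to 44.4 CPM. The netrin receptor gene unc-5 fell by a log2 of 2.06 and the sodium channel gene NaCP60E by 1.12. Arr1, the photoreceptor arrestin, had 1.22, 4.31 and 11.4 CPM in WT and 0.0490, 0.252 and 0.334 CPM in OKSM (log2 -4.75 ± 0.97, adjusted p = 0.0885), and without WT replicate 3 its fold change was -3.72 (adjusted p = 0.183). Its call was also lost without any 1 OKSM library, WT replicate 2, Sen replicate 2 or any 1 OKSM-Sen library. Ptth, the prothoracicotropic hormone, fell from 0.848, 1.58 and 2.10 CPM to 0.441, 0.441 and 0.334 CPM (log2 -1.88). The calls of unc-5, Ptth, NaCP60E and asRNA:CR44029 were lost without OKSM replicate 2, and all but that of NaCP60E without OKSM replicate 3. Those of unc-5 and Ptth were lost without OKSM replicate 1 or WT replicate 3 too, that of unc-5 without WT replicate 1, and that of Ptth without WT replicate 2 or any 1 OKSM-Sen library (adjusted p of up to 0.243).

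Other genes that fell belonged to varied functions. CG4741 fell from 92.8, 66.1 and 68.3 CPM to 26.3, 24 and 26 CPM (log2 -1.58 ± 0.14, adjusted p = 0.00076), and Sen and OKSM-Sen were at 29.5 to 37.6 CPM. sordd1 had 140, 154 and 155 CPM in WT, 79.5, 98.3 and 88.7 CPM in OKSM and 148, 136 and 141 CPM in OKSM-Sen. For obst-E the values were 4.40, 3.19 and 5.46 CPM in WT and 1.79, 1.57 and 1.61 CPM in OKSM (log2 -1.39 ± 0.20, adjusted p = 0.0208), with 3.6 to 4.06 CPM in OKSM-Sen, and the call was lost without OKSM replicate 2 (adjusted p of up to 0.153 over all settings). It was the called one of 19 genes of the peritrophic matrix and mucins, whose median was 0.26, while 0.54% of all genes fell. The kinase gene Takl1 (log2 -0.65), the elongin gene EloB (-0.50), the O-glycosylation gene Pgant2 (-0.56) and Cfp1, of a histone methyltransferase complex (-0.50), fell by less than a log2 of 1. The call of Takl1 was lost without OKSM replicate 1 or OKSM replicate 2, and those of EloB, Pgant2 and Cfp1 without OKSM replicate 2, OKSM replicate 3 or WT replicate 2, among others (adjusted p of up to 0.258). Of the 105 called genes, 27 that rose (log2 0.44 to 6.32) and 15 that fell (log2 -5.96 to -0.44) are known by a CG number alone.

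A pair of noncoding transcripts was found in WT and hardly anywhere else. CR41509, a pseudogene and the sole gene of chromosome Y that was tested, had 1.03, 1.18 and 1.08 CPM in WT and no read in OKSM or Sen (adjusted p = 0.0509), which makes it at least 38.6-fold lower in OKSM, with the floor set at 3 reads over the group. No read of it was counted in OKSM-Sen either. It therefore passed the filter on the 115 reads of WT alone, and it was tested in 14 of the 17 settings tried. lncRNA:CR45570 had 2.01, 3.33 and 1.76 CPM in WT and 0.0735, 0 and 0 CPM in OKSM (log2 -6.25 ± 0.97, adjusted p = 0.0357, and -9.38 without OKSM replicate 1, where no read was left), and 0 to 0.0562 CPM in Sen and OKSM-Sen. Calls of both were lost without OKSM replicate 2 or OKSM replicate 3 (adjusted p of up to 0.233). What sets WT apart here, the transgene or the stock, cannot be told apart.

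**Figure D3:**
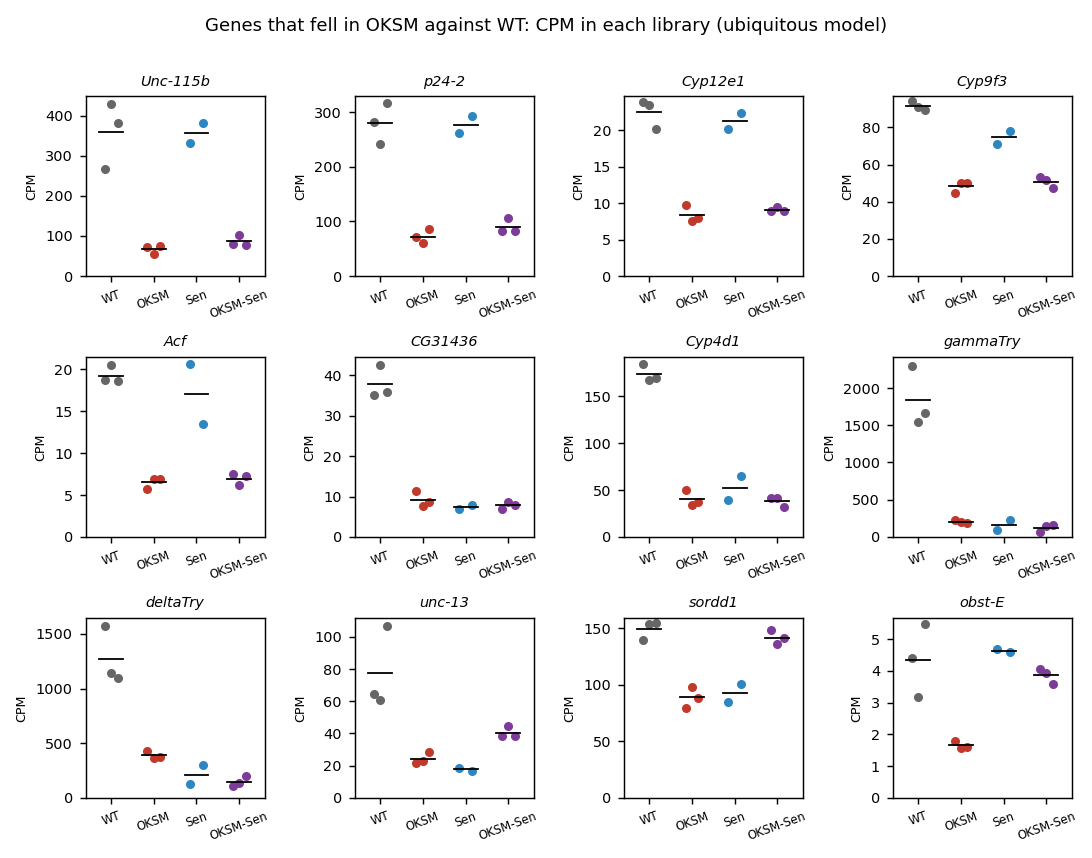
CPM (vertical axes, each from 0) of 12 genes that fell in OKSM against WT, with 1 point per library for WT, OKSM, Sen and OKSM-Sen (horizontal) and the mean as a line. Unc-115b, p24-2, Cyp12e1 and Acf were low in OKSM and OKSM-Sen, gammaTry, deltaTry, Cyp4d1 and CG31436 were low in every construct but WT, and sordd1 and obst-E were near WT in OKSM-Sen.

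Genes of the cytosolic ribosome were lower together by a small amount. None of the 82 ribosomal protein genes tested was called by edgeR, whereas 38 were lower and none was higher at an unadjusted p under 0.05, and 21 fell by DESeq2. Of all 9637 genes, 511 were lower at that p and 200 fell by DESeq2. The median log2 fold change of the ribosomal protein genes was -0.29, and 81 of the 82 were below 0. The OKSM and WT libraries did not overlap for 66 of them, compared with 14.5% of all genes. Summed over the list, the level was 107200 to 129900 CPM in WT and 92830 to 98950 CPM in OKSM. RpL17 had 1100, 1110 and 1330 CPM in WT and 837, 840 and 843 CPM in OKSM (adjusted p = 0.122), and sta, the ribosomal protein SA, had 1680, 1700 and 2130 CPM against 1370, 1350 and 1300 CPM (adjusted p = 0.203). WT replicate 3 was the highest for both. When 1 OKSM or WT library was left out, the median ran from -0.33 to -0.19, and the number lower at an unadjusted p under 0.05 ran from 7 without WT replicate 3 to 44 without WT replicate 1, with 19 without OKSM replicate 1 and 21 without OKSM replicate 3. Without OKSM-Sen replicate 1 it was 54. Of 46 translation factors, eIF3c, a subunit of initiation factor 3, fell from 404, 399 and 388 CPM to 314, 300 and 295 CPM (log2 -0.39 ± 0.08, adjusted p = 0.089), a call that was lost without any 1 of the OKSM, WT and OKSM-Sen libraries or Sen replicate 2 (adjusted p of up to 0.286). Among all genes tested, 0.54% fell by edgeR. The summed level of the 46 was 21310 to 22440 CPM in WT and 17670 to 17930 CPM in OKSM, and 12 were lower at an unadjusted p under 0.05. Mitochondrial ribosomal proteins did not share this shift, with a median of -0.02 over 72 genes, none of which was called by edgeR or DESeq2 and at an unadjusted p under 0.05, 1 was higher and 1 lower.

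**Figure D4:**
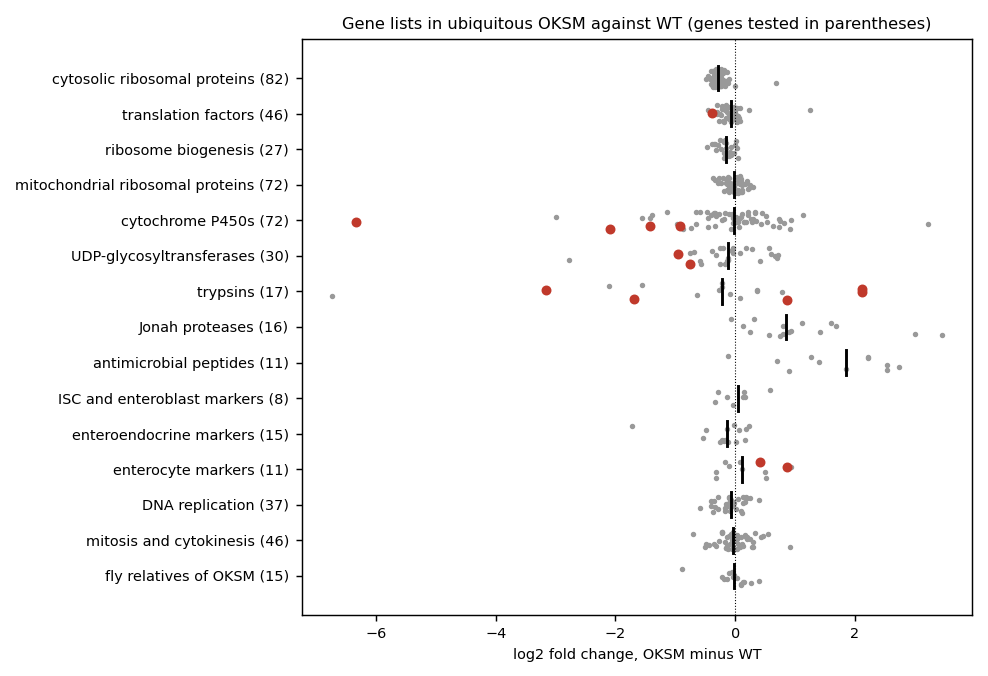
Log2 fold change of OKSM minus WT (horizontal) of the genes tested in 15 lists (vertical, number of genes in parentheses), with called genes in red and the median as a bar. The ribosomal proteins form a narrow band below 0 (median -0.29), the Jonah proteases and antimicrobial peptides lie mostly above 0 without a call, and the markers of ISCs and of cell division are centered near 0.

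Signaling pathways that act on ISCs showed no call. Genes of EGFR and Pvr signaling (15 tested), JAK/STAT (11), Notch (15), Wnt (23), Hedgehog (11), BMP and TGF-beta (18), JNK (16), Hippo (14) and insulin and TOR signaling (21) had medians between -0.01 and 0.11. By edgeR none of them was called, an unadjusted p under 0.05 was reached by at most 1 gene in each direction per list, and DESeq2 called 1 gene each of the Hedgehog, BMP and insulin lists. Of 36 Toll and Imd components none was called by edgeR, 2 were higher at an unadjusted p under 0.05 and DESeq2 called 1. The 67 nuclear genes of the respiratory chain had a median of 0.02, no call by either tool and no gene under an unadjusted p of 0.05. Among 21 lysosomal enzymes 4 were higher at an unadjusted p under 0.05, none was called by edgeR and 3 rose by DESeq2. Of all 9637 genes, 464 were higher and 511 lower at that p, and 227 rose and 200 fell by DESeq2. The 12 mitochondrially encoded genes had a median of -0.24, with 3 lower at an unadjusted p under 0.05 and no call by edgeR or DESeq2.

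Among the markers of the midgut's cell types, 2 of the enterocyte list were called by edgeR. All 8 ISC and enteroblast markers tested were detected, at a summed level of 62.1 to 90.0 CPM in WT and 65.8 to 83.9 CPM in OKSM, and none was called by edgeR or DESeq2 or reached an unadjusted p under 0.05. The median over the 8 was 0.05. Sox100B had 19.7, 20.5 and 14.7 CPM in WT and 16.9, 18.0 and 25.4 CPM in OKSM, and Sox21a, a Sox gene of enteroblasts, had 17.5, 29.9 and 14.0 CPM against 12.6, 18.0 and 25.3 CPM. For both genes the groups overlapped. Of 15 enteroendocrine markers none was called by edgeR and 1 was lower at an unadjusted p under 0.05. This was the peptide hormone gene Mip, with 3.90, 4.63 and 4.32 CPM in WT and 0.539, 1.64 and 1.70 CPM in OKSM (adjusted p = 0.164), which DESeq2 called. Of 11 enterocyte markers, betaTry and mex1 rose, beside 0.55% of all genes, and 5 had libraries without overlap, beside 14.5%. The calls of betaTry and mex1 were lost without any 1 of the 6 OKSM and WT libraries. The median of the 11 was 0.11, with 7 above 0 and a lowest value of -0.32. Their summed level was 37150 to 37830 CPM in WT and 47750 to 51610 CPM in OKSM. Within that sum, betaTry alone had a mean of 8437 CPM in WT and 15350 CPM in OKSM. None of 46 genes of mitosis and cytokinesis and none of 37 of DNA replication was called by either tool, with 0 and 2 at an unadjusted p under 0.05 and medians of -0.04 and -0.08.

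Markers of other tissues that a dissection could carry along were also counted. Of 8 ovary and egg genes tested, none was called by edgeR, 2 were higher at an unadjusted p under 0.05 and 2 rose by DESeq2. Of all 9637 genes, 464 were higher and 511 lower at that p, and 227 rose and 200 fell by DESeq2. All 8 ovary and egg genes were above 0, with a summed level of 0.863 to 2.96 CPM in WT and 2.99 to 8.30 CPM in OKSM. At such low levels, which genes passed the filter depended on the libraries where they were higher. Without OKSM replicate 3, 6 were tested and 5 of them were above 0, with a median of 1.04. With no filter on low counts, all 18 listed were above 0, with a median of 1.71. Each of the 18 ovary and egg genes listed had a read in at least 1 of the 6 libraries. The part of such RNA in the rise of CG32302, which overlaps an eggshell gene, was not tested. The fat body list held Lsp1gamma at 1.33, 0.833 and 1.51 CPM in WT and 10.9, 3.31 and 8.33 CPM in OKSM (adjusted p = 0.167) and no call by edgeR, with 2 higher genes and 1 lower gene below an unadjusted p of 0.05 and 1 risen by DESeq2. Of its 8 genes tested, 4 were above 0, with a median of 0.10 and a lowest value of -1.48. Their summed levels overlapped, at 131 to 458 CPM in WT and 220 to 419 CPM in OKSM. Of 8 Malpighian tubule markers 6 were below 0, with a median of -1.37, no call by edgeR or DESeq2, and 1 higher and 1 lower gene below an unadjusted p of 0.05. The median was -0.56 without WT replicate 1 and -1.91 without WT replicate 2, where 1 gene fell and 5 were lower at that p, and 1 rose without Sen replicate 2 or Sen replicate 3. Their summed level of 76.9 to 257 CPM in WT and 116 to 179 CPM in OKSM overlapped. Visceral muscle and hemocyte markers had no gene under an unadjusted p of 0.05 and no call by either tool.

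The fly's own relatives of the introduced factors did not pass the test. Of 15 tested, none was called by edgeR or DESeq2 and 2 were lower at an unadjusted p under 0.05. These were the POU gene pdm3, with 0.795, 0.977 and 1.14 CPM in WT and 0.368, 0.535 and 0.669 CPM in OKSM (adjusted p = 0.368), and Max, the partner of Myc, with 20.9, 24.5 and 22.8 CPM against 19.3, 19.3 and 19.7 CPM (adjusted p = 0.454). Myc had 266, 235 and 189 CPM in WT and 196, 246 and 160 CPM in OKSM, and nub, an enterocyte POU gene, 236, 278 and 242 CPM against 215, 244 and 244 CPM. The groups overlapped for both. The driver gene arm was level, at 198 to 213 CPM in WT and 191 to 214 CPM in OKSM. The eye color gene w, which transgenes carry as a marker, had 14.1, 13.2 and 15.8 CPM in WT and 34.1, 18.6 and 22.1 CPM in OKSM, without overlap but also without a call (adjusted p = 0.833). Mocs1, the gene at the attP2 site, had 34.2 to 40.3 CPM in WT and 35.2 to 44.9 CPM in OKSM. The heat shock gene Hsp70Ba, whose copies share reads, had no read in WT and 20.5, 2.46 and 2.01 CPM in OKSM (adjusted p = 0.369).

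A contrast that shares no library with OKSM against WT, that of OKSM-Sen against Sen, also differed by the presence of OKSM. Of the 53 genes that rose, 5 were called in the same direction there, against a background of 1.17% of all genes, and none in the opposite one. These were CG33346 (log2 2.87), CG32302 (2.27), LysC (1.70), CG4686 (0.90) and cas (7.84, with no read in Sen). Of the 52 that fell, 8 were called in the same direction, against a background of 0.623%, and 5 in the opposite one. The 8 were Unc-115b (-2.03), p24-2 (-1.62), Cyp12e1 (-1.23), Cyp9f3 (-0.55), Acf (-1.29), pre-mod(mdg4)-AE (-2.08), Pex11c (-0.69) and Daao2 (-1.0). The 5 with the opposite sign were unc-13 (1.19), asRNA:CR44029 (1.03), Takl1 (0.92), HIP-R (0.79) and sordd1 (0.61), all of which had Sen libraries below every WT library. Called or not, 30 of the 53 genes that rose and 35 of the 52 that fell had the same sign in both contrasts, and the medians over them were 0.16 and -0.22 in OKSM-Sen against Sen. Both contrasts came from the same fit and shared its estimate of the spread of each gene, so their calls were not independent. When the libraries of each contrast were fitted alone, 40 genes were called in OKSM against WT, and 6 of these were called the same way in OKSM-Sen against Sen.

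The genes called in the same direction in both contrasts lay nearly all on chromosome 3, which carries the UAS-OKSM insertion. Of these 13 genes, 12 were on chromosome 3, with 10 on its right arm 3R and 2 on 3L, whereas 43.7% of all genes tested and 50.3% of the 173 genes called in OKSM-Sen against Sen were on it. Daao2, on 2L, was the exception. Of the 92 other genes called in OKSM against WT, 30.4% were on chromosome 3. The 10 genes of 3R were spread over the arm, in the BDGP6.54 annotation, from cas at 5712975 and Unc-115b at 9687060 to CG33346 at 28669233 and Acf at 31793981. Unc-115b and p24-2, whose spans nearly coincide, were both among the 10. All OKSM flies carried the same inserted chromosome, so an action of the OKSM factors and a difference of that chromosome cannot be told apart for these genes, and no test of the position was run. The methods name attP2 for the transgenes made in the study, without setting UAS-Sen apart, and give no site for UAS-TdTomato. The sites of these chromosomes bear on the same point.

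**Figure D5:**
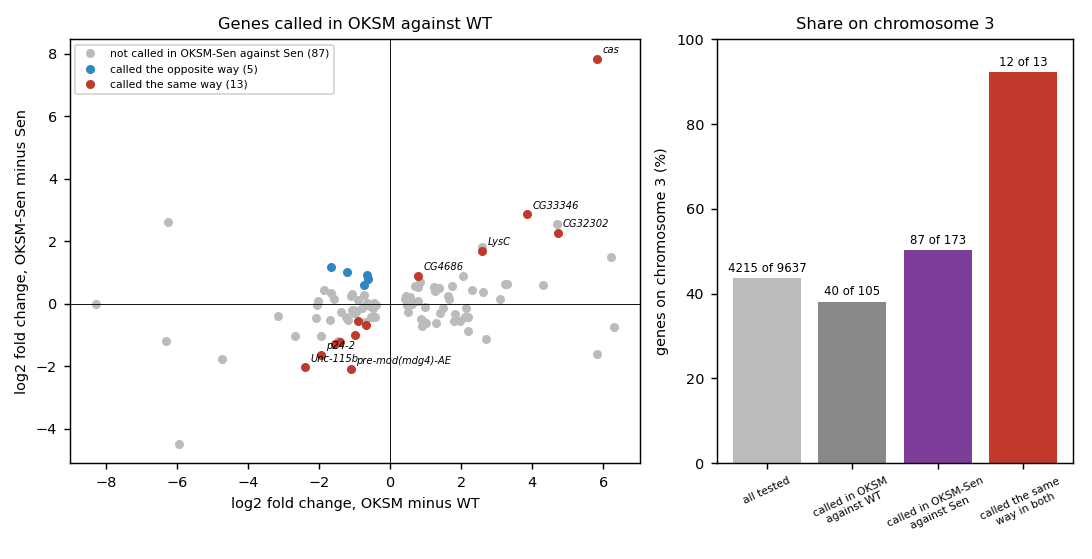
Left, log2 fold change of OKSM-Sen minus Sen (vertical) against OKSM minus WT (horizontal) for the 105 called genes, with those called the same way in both in red and the opposite way in blue. Right, percent of genes on chromosome 3 (bars from 0, with the counts above them) among all tested, those called in each contrast and the 13 called the same way in both, of which 12 were on chromosome 3.

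The ISC-restricted model had its own OKSM and WT libraries, 3 of each, and used the same UAS-OKSM and UAS-TdTomato lines. There the response was wider, with 17.3% of 9374 genes called higher and 15% called lower in OKSM against WT. Of the 50 genes that rose in the ubiquitous model and were tested, 30 were called in the same direction and 4 in the opposite one, and of the 49 that fell, 37 and none. The genes with the same direction included TotM (log2 6.24), Pcp (5.14), CG32302 (4.09) and zfh2 (1.94) among those that rose. Among those that fell they included CG11893 (-6.52), Cyp12e1 (-3.14), Unc-115b (-2.46) and p24-2 (-1.93). TotM had 0.0636, 1.21 and 0.184 CPM in WT of the ISC model and 18.1, 32.4 and 60.2 CPM in OKSM. CG11893 had 89.4, 120 and 65.2 CPM against 1.14, 1.10 and 0.748 CPM. Unc-115b had 361, 377 and 248 CPM against 56.7, 64.1 and 58.5 CPM, close to its values in the ubiquitous model. The 4 genes with the opposite direction were futsch (-1.45), Mpcp1 (-1.15), CG3961 (-0.38) and Ndg (-1.32).

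The difference between the drivers was tested as an interaction over all 23 libraries, in which 4.12% of 9602 genes were called. Of the 105 genes 13 were among them. The genes had been chosen on their change in the ubiquitous model, which is one side of that difference, which favors a smaller change in the ISC model. The difference was largest, among the genes that rose, for futsch, with 4.64, 2.54 and 2.82 CPM in ISC WT and 1.14, 1.65 and 0.873 CPM in ISC OKSM, where it fell. CG33346 rose in both models but less in the ISC model (log2 1.3), and its level in ISC WT was 120, 102 and 196 CPM. CG31683 likewise had 35.0, 39.0 and 37.8 CPM in ISC WT and 76.8, 71.5 and 103 CPM in ISC OKSM. CG40472 rose more in the ISC model (log2 2.33) than in the ubiquitous one (0.98).

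The calls varied in how well they held. Over 17 settings that changed the normalization, the tool, the filter, the libraries in the fit or left out 1 library of the ubiquitous model, no gene of the 105 changed sign and 26 were called in every one. Among the genes that rose these were CG33346, Lcp1, CG31683, futsch, CG32302, LysC, AANATL2, CG15153, CG12112, Pcp, CG31705, CG1628, CG44006, TotM and CG7227. Among those that fell they were CG31436, Cyp12e1, Unc-115b, p24-2, CG4741, Cyp9f3, Cyp4d1, Acf, unc-13, gammaTry and sordd1. Without OKSM replicate 1, 69 genes were called (42 rose and 27 fell), of which 51 were among the 105. Leaving out another OKSM or WT library gave 37 (without OKSM replicate 2), 40 (without OKSM replicate 3), 54 (without WT replicate 1), 87 (without WT replicate 2) and 51 (without WT replicate 3). In the annotation, 48 of the 105 genes overlap another annotated gene and 18 have another called gene within 20000 bases. CG1941 (adjusted p = 0.0988) was the last gene inside the threshold, and CG9812 (0.1) and CG4098 (0.101) were the first outside it.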

How the data were processed

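RNA from midguts was sequenced, and the authors deposited, for each library, expected counts and TPM per gene estimated with RSEM 1.3.1 after alignment with STAR 2.7.1a, the versions named in the submitters' processing notes, against dm6. Expected counts are reads shared out among genes by RSEM, and the TPM values deposited by the authors divide them by transcript length. Here expected counts were rounded, 390 rRNA, snoRNA and snRNA genes were left out, and genes with a mean of at least 10 reads over the 11 libraries of the ubiquitous model were kept. WT, OKSM, Sen and OKSM-Sen were fitted together by group with edgeR 4.0.16 (R 4.3.3; TMM factors, robust quasi-likelihood F test), and the contrasts were adjusted by Benjamini-Hochberg over all genes at an FDR of 10%. ISC libraries (12) were fitted on their own, and the difference between drivers as an interaction over both models. CPM were computed from the rounded counts. Genes given in full were those with the lowest p or the largest change among the called genes in each direction, and called members of the gene lists. Further genes were named after their values were seen. The members and lists were chosen with earlier results of these data known. The gene stai, not a ribosomal protein gene, was taken off its list after values were seen. Gene names and positions came from the BDGP6.54 annotation. Alternatives were RLE factors, DESeq2 1.42.0, no filter, the libraries compared alone, a replicate block, no robust estimation, an FDR of 5% and leaving out each library in turn. The test code was tested on simulated data. Sen replicate 1 was not analysed here, and promoter motifs were not used here.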

Additional observations from a re-analysis of the deposited data

Results flagged for a closer look

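The effect of OKSM differed between the ISC-restricted and the ubiquitous driver for 13 of the 105 genes, by the interaction test of edgeR at an FDR of 10%. The log2 differences, ISC effect minus ubiquitous effect, of genes that rose under the ubiquitous driver were -5.78 for futsch, -5.16 for CG31683, -5.14 for Lcp1, -3.14 for Mpcp1, -2.57 for CG33346, -2.24 for Ndg, -1.79 for CG43107, -1.20 for CG1628, -1.19 for CG3961, -0.47 for frj and 1.32 for CG40472. Of genes that fell, Cyp6a16 differed by 7.48 and CG3635 by -1.04. Lcp1 was under the mean of 10 reads over the 12 ISC libraries and was not tested in that model alone, so its difference rests on few reads there. Cyp6a16 had 0.318, 0.254 and 0.551 CPM in ISC WT and 1.64, 0.688 and 0.499 CPM in ISC OKSM, a few reads in each library. CG3635 fell in both models, from 39.9, 28.7 and 39.1 CPM to 17.1, 17.7 and 18.7 CPM in the ubiquitous one and from 40.3, 38.9 and 40.5 CPM to 9.25, 10.7 and 9.48 CPM in the ISC one. The 105 genes had been chosen on the ubiquitous effect, which is part of this difference, and the causes were not tested.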

How the results depend on the processing

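No called gene changed sign in any setting, and 79 of the 105 lost their call in at least 1. At an FDR of 5%, 44 genes were called (23 rose, 21 fell). DESeq2 called 427 (227 rose, 200 fell) and a fit of the compared libraries alone 40 (21 rose, 19 fell). Replicate numbers did not pair WT and OKSM (correlations of deviations 0.0997, 0.109 and -0.011), and with the replicate block 60 genes were called (31 rose, 29 fell), 58 of them among the 105. Leaving out 1 library gave 37 to 115 calls (21 to 61 rose, 16 to 59 fell). Of the 105, 13 were called the same way in OKSM-Sen against Sen, 44 with DESeq2, 6 in the compared libraries alone, 8 with the block and 7 to 13 without 1 library. In ISC OKSM against WT the 67 became 216 with DESeq2, 26 in the compared libraries alone, 38 with the block and 26 to 71 without 1 library. The 11 apart from OKSM-Sen became 64, 9 and 8, and 3 to 11 without 1 library. The 13 with another effect under the ISC driver became 119, 8 and 7, and 5 to 21 without 1 library. Each setting counted among its own called genes, which is why DESeq2 counts exceed 105. RLE factors, no filter and no robust estimation kept every such count within 1.5 times. The causes were not tested. Genes under about 1 CPM, such as cas, Cyp6a16 and CR41509, rest on few reads. The promoter search was not run, as no promoter sequence was used here.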
